A study of Mus musculus with 2 samples.

Results

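Expression of 10 genes of the liver X receptor (LXR) and cholesterol efflux system was measured in CD4+ T cells: the receptors Nr1h2 and Nr1h3, the exporters Abca1 and Abcg1, the LXR targets Srebf1, Scd2, Lpcat3 and Mylip, the esterifying enzyme Soat1 and the lysosomal cholesterol transporter Npc1. They were taken by symbol, and all 10 were found among the 24346 symbols of each library. The data are 2 RNA sequencing libraries, made from CD4+ cells that were sorted out of the spleens of mice on day 14. Both groups carry the label HFD-MI; one received probucol and the other was left untreated, with 1 library each. The series title places them after myocardial infarction. The labels give no genotype, strain, age or number of animals, and the column names of both libraries carry the word HypoE without saying what it means. Probucol is a lipid-lowering antioxidant that is also known to block cholesterol export through ABCA1.

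LXRs are nuclear receptors that bind oxysterols, the oxidised forms of cholesterol, and act on DNA together with a retinoid X receptor. When sterols accumulate they switch on genes that export cholesterol, limit its uptake and remodel fatty acids and phospholipids. In T cells, LXR beta and ABCG1 are known to hold back proliferation by lowering the sterol available to a dividing cell.

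Levels are given in FPKM, the number of fragments scaled by transcript length and sequencing depth, which allows levels to be compared between genes. With 1 library per group no replicate spread exists and no p-value was computed. The intervals in brackets are 95% counting intervals from the estimated number of fragments behind each value. They do not cover variation between animals, sorts or library preparations, and any PCR copies among the fragments would make them too narrow. The libraries held an estimated 1.04e+07 fragments each. The T cell genes Cd3e and Cd4 were at 478 and 334 FPKM with probucol and at 494 and 284 FPKM untreated. Of the 6 T cell markers measured 2 were higher with probucol and 4 lower. The CD8 chain genes stood at different levels, Cd8a at 0.139 and 0.276 FPKM and Cd8b1 at 15.9 and 19.6 FPKM, so transcripts of the CD8 beta chain were present in both libraries. In RNA from a sorted population, fewer cells of a type and less RNA per cell cannot be told apart.

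LXRs act at direct repeats of the half-site AGGTCA with 4 bases between the copies. RefSeq promoters (GRCm38.p6) of 7 of the genes were searched. The search did not include Abcg1, Scd2 and Npc1, so nothing is said on their promoters. The stretches nearest to this repeat are shown for Abca1 and Srebf1, both textbook LXR targets, because only these met the mismatch limit given below. The search covered 250 bases before to 50 bases after each start, on both strands, and allowed 3 mismatches over the 12 half-site letters. A match was found for 2 of the 7 genes, Abca1 and the most downstream of the 3 starts of Srebf1. Among all 27025 genes with a promoter in the table, 24.5% held such a match, so its presence alone is common. Both matches lay on the strand opposite to the gene. Read 5′ to 3′ on that strand, with the half-sites in capitals, they were:
Abca1 chr4:53159947-53159962: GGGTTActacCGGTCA
Srebf1 chr11:60210638-60210653: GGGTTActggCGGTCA
The windows shared all 12 half-site bases, and 14 of 16 bases in all. The nearest stretches before the starts of Nr1h2, Nr1h3, Lpcat3 and Soat1 had 4 mismatches. That of the LXR target Mylip, after its start, had 5. The 250 bases before each start follow on the strand of the gene, with the match in capitals, 67 to 52 bases before the start of Abca1 and 182 to 167 bases before that of Srebf1.
Abca1 chr4:53159896-53160145, minus strand: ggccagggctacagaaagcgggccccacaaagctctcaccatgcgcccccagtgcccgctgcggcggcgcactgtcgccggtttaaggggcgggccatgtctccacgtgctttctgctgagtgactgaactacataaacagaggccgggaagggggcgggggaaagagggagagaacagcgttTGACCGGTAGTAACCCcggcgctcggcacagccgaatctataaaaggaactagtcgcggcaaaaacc
Srebf1 chr11:60210472-60210721, minus strand: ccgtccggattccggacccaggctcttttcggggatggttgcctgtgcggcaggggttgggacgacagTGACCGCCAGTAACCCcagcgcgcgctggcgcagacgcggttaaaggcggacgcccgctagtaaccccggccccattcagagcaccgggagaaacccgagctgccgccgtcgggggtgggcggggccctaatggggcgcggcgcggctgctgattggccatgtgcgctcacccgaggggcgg
A match describes the sequence and says nothing on binding; the levels of both genes are given below.

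The LXR genes differed widely in level. Nr1h2, which encodes the broadly expressed LXR beta (chromosome 7, 44549616 to 44553951), measured 56.8 FPKM in the probucol library and 53.4 FPKM in the untreated one. The ratio of probucol over untreated was 1.06 (0.974 to 1.17). Its counting interval holds 1. Nr1h3, which encodes LXR alpha, the form typical of liver and macrophages (chromosome 2, 91184061 to 91202834), measured 1.70 FPKM in the probucol library and 0.376 FPKM in the untreated one. These levels rest on about 27 and 6 fragments, and the ratio of 4.52 has a wide interval (1.83 to 13.4). Nr1h3 passed the filter of a mean of 1 FPKM, at 1.04, because of its level in the probucol library. Among genes with a mean of 1 to 5 FPKM, 1.95% had a ratio of at least 4 in this direction, and 27.0% had a counting interval wholly above 1.

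LXR beta was the main LXR transcript in both libraries. LXR alpha made up 2.90% of the summed FPKM of the pair with probucol and 0.699% untreated. By fragments the shares were 27 of 1036, or 2.61% (exact binomial interval 1.72 to 3.77%), and 6 of 958, or 0.626% (0.230 to 1.36%). The summed level of the pair was 58.5 and 53.8 FPKM.

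**Figure D1:**
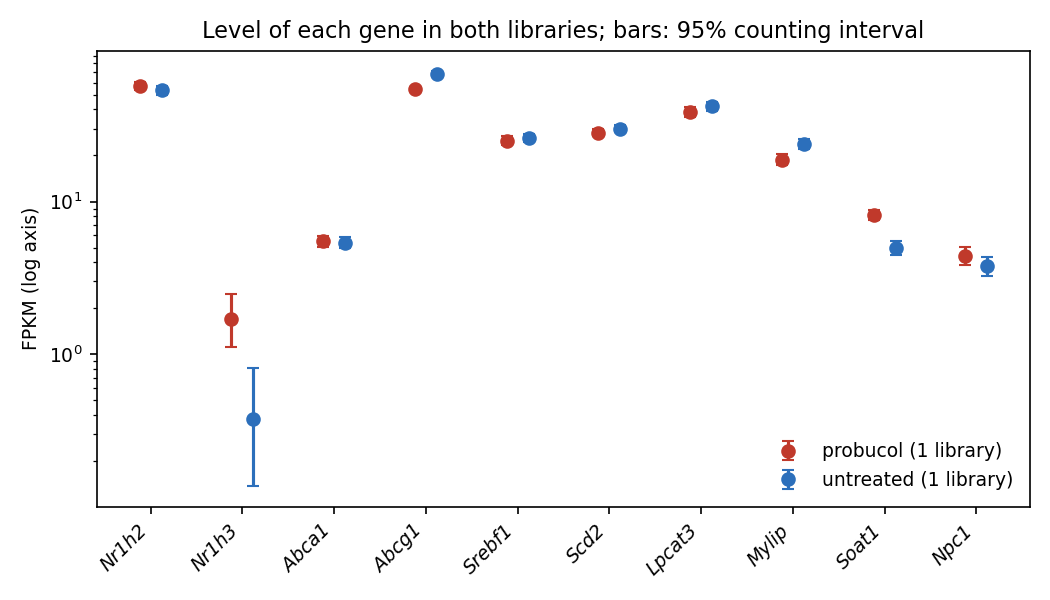
FPKM of each gene (log axis) in the probucol and the untreated library, 1 point per library, with 95% counting intervals as bars. Nr1h2 and Abcg1 are the highest in both libraries, Nr1h3 the lowest, and the intervals of Abcg1, Mylip, Soat1 and Nr1h3 lie apart between the libraries.

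The cholesterol exporters differed in their ratios. Abca1, which loads cholesterol onto lipid-poor apolipoproteins (chromosome 4, 53030787 to 53159895), measured 5.50 FPKM in the probucol library and 5.39 FPKM in the untreated one, on about 551 and 542 fragments. Its ratio was 1.02 (0.906 to 1.15), and its levels in the libraries differed by less than the counting error. Abcg1, which passes cholesterol to high-density lipoprotein (chromosome 17, 31057675 to 31117988), measured 54.4 FPKM in the probucol library and 68.7 FPKM in the untreated one, on about 3044 and 3861 fragments. It was 1.26-fold lower with probucol (1.20 to 1.32). Abcg1 was the more abundant exporter in both libraries, and the quotient of Abca1 over Abcg1 was 0.101 with probucol and 0.0785 untreated. That quotient does not depend on how the libraries were scaled, and it was 1.29-fold higher with probucol (1.13 to 1.47).

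The lipogenic and phospholipid targets lay close to equality. Srebf1, which encodes the fatty acid regulator SREBP-1, measured 25.0 FPKM in the probucol library and 26.1 FPKM in the untreated one (ratio 0.960, 0.880 to 1.05). The deposited value is 1 per gene, so its alternative starts cannot be told apart. Scd2, a desaturase that makes monounsaturated fatty acids, stood at 28.1 and 30.03 FPKM (ratio 0.937, 0.872 to 1.01). Lpcat3, which places polyunsaturated chains into phospholipids, stood at 38.4 and 42.1 FPKM (ratio 0.913, 0.829 to 1.01). It shares 334 exon bases with Emg1 on the opposite strand, at 370.4 and 352 FPKM, and without strand the fragments of these bases cannot be assigned. All 3 values were lower with probucol, and all 3 intervals hold 1.

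Mylip, also known as IDOL, encodes a ubiquitin ligase that marks lipoprotein receptors for degradation (chromosome 13, 45389742 to 45412022). It measured 18.8 FPKM in the probucol library and 23.9 FPKM in the untreated one, on about 534 and 681 fragments, 1.27-fold lower (1.13 to 1.42).

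Storage and lysosomal egress completed the set. Soat1, the acyltransferase that turns free cholesterol into esters for lipid droplets (chromosome 1, 156424525 to 156474331), measured 8.13 FPKM in the probucol library and 4.97 FPKM in the untreated one. On about 660 and 406 fragments, it was 1.63-fold higher with probucol (1.44 to 1.85). Npc1, which carries cholesterol out of late endosomes and lysosomes (chromosome 18, 12189692 to 12236400), stood at 4.39 and 3.79 FPKM (ratio 1.16, 0.949 to 1.41). It shares 511 exon bases with Rmc1 on the opposite strand, a symbol without a value in the libraries. Without strand the fragments of these bases cannot be assigned. The soluble partner of Npc1, Npc2, was listed at far higher levels, 139.5 and 144 FPKM (ratio 0.968, 0.928 to 1.01). Neither Npc gene had an interval apart from 1.

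**Figure D2:**
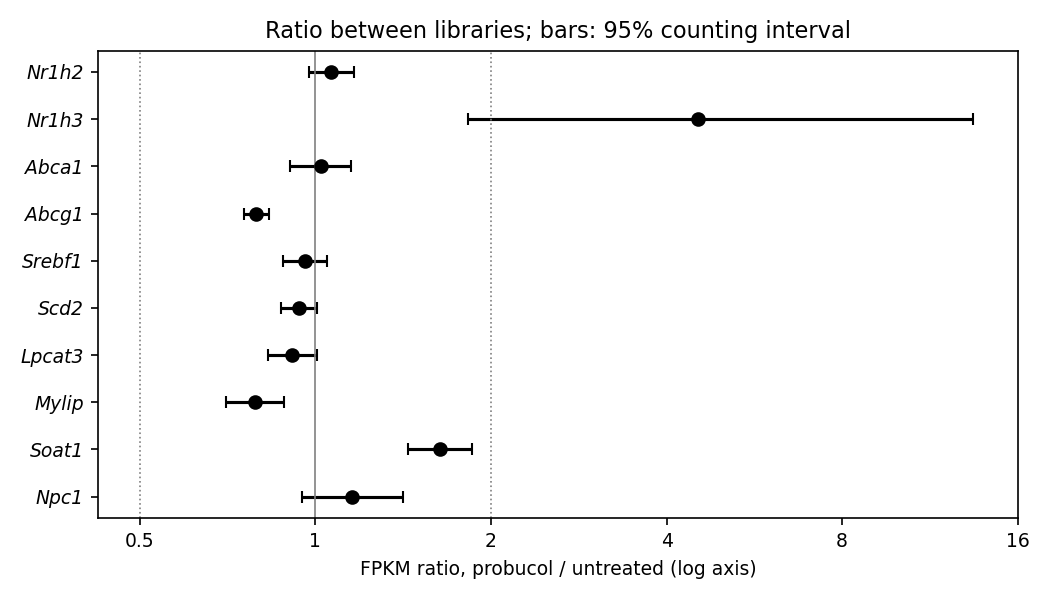
Ratio of FPKM with probucol over untreated (log axis) for each gene, with 95% counting intervals; the solid line marks equality and the dotted lines 2-fold. Soat1 and Nr1h3 lie above 1, Abcg1 and Mylip below 1, and the intervals of the other 6 genes hold 1.

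On the log2(FPKM + 1) scale, which understates the differences of low genes, 5 of the 10 genes were higher with probucol and 5 were lower. Their median log2 ratio was -0.02, against 0.02 over the 10663 genes with a mean of at least 1 FPKM, of which 52.7% were higher. Without Nr1h3 the median of the other 9 genes was -0.06. No member reached 2-fold on this scale, where 1.62% of all genes were at least 2-fold higher and 1.98% at least 2-fold lower. Nr1h3 stood just short of it, at 0.97. Soat1 followed at 0.61, and the lowest were Abcg1 and Mylip, both at -0.33. Of the 10 genes, 2 had a counting interval wholly above 1 and 2 wholly below, while among all genes with a length these shares were 29.0% and 24.2%. The members' counts of 2 of 10 in either direction are near this background. As far from equality as Abcg1 or further were 30.7% of all genes, as far as Soat1 10.5%, and as far as Nr1h3 3.83%.

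**Figure D3:**
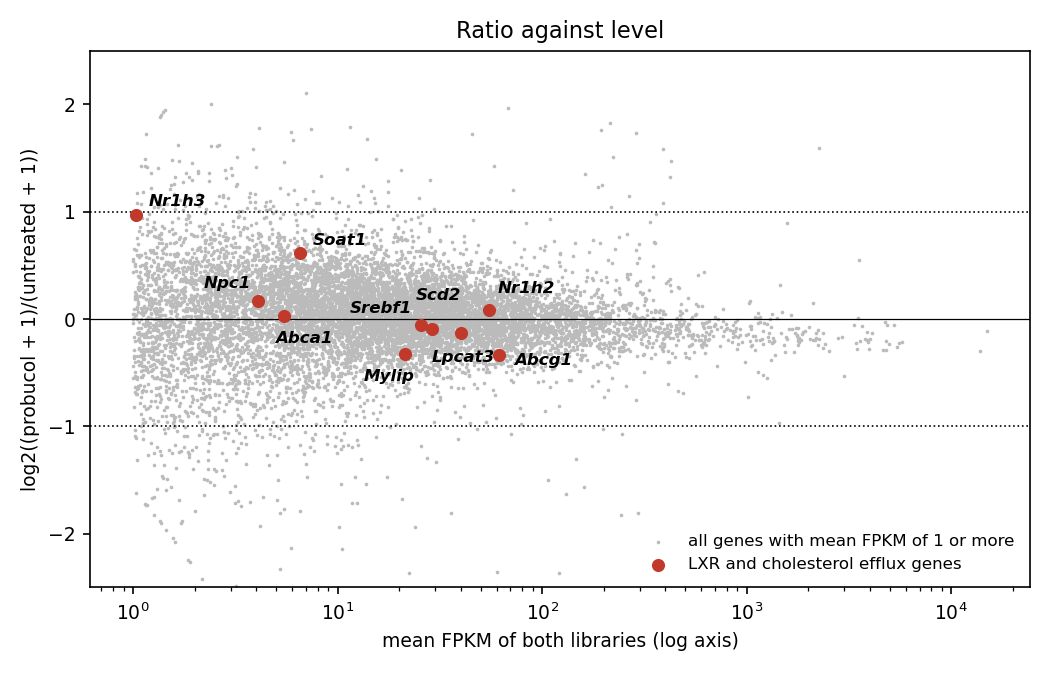
Log2 ratio of probucol over untreated on FPKM + 1 against the mean FPKM of both libraries (log axis), with all genes in grey and the LXR and efflux genes in red. Dotted lines mark 2-fold, and 59 genes beyond 2.5 in either direction are outside the axis; the red points lie within the grey band, Nr1h3 at its low-level end.

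The order of levels was nearly the same in both libraries. With probucol Nr1h2 and Abcg1 led, with intervals that overlap (53.4 to 60.5 and 52.5 to 56.4 FPKM). Untreated, Abcg1 stood above Nr1h2, at 66.5 to 70.9 against 50.04 to 56.9 FPKM. Lpcat3, Scd2, Srebf1 and Mylip came next in both, of which Srebf1 and Mylip overlapped untreated (24.6 to 27.7 and 22.1 to 25.7 FPKM). Soat1 was above Abca1 with probucol, and the intervals of the pair overlapped untreated. Npc1 and then Nr1h3 closed the order in both libraries.

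Beyond these members, 98 further genes of the pathway were grouped into 9 lists, of which 68 had a mean of at least 1 FPKM. Of the 68, 43 were higher with probucol and 25 lower, with a median log2 ratio of 0.08, while 52.7% of all genes were higher. Of their intervals 23 lay above 1 and 14 below, where the shares of all genes with a length were 29.0% and 24.2%. On the log2(FPKM + 1) scale 0 were at least 2-fold higher and 1, Apoc1, at least 2-fold lower. The partners and coregulators of LXR were higher in 8 of 9 cases, with a median of 0.17, and 5 intervals lay above 1 and 1 below. The corepressor Ncor1 led them at 46.2 and 32.7 FPKM, 1.41-fold higher (1.34 to 1.49), and the coactivator Ncoa6 was 1.33-fold higher (1.15 to 1.55). The receptor partner Rxrb went the other way, at 37.7 and 43.0 FPKM. It exceeded Rxra, at 1.25 and 1.19 FPKM, in both libraries, and Rxrg was listed at 0 in both.

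Other textbook LXR targets were divided, 5 higher and 4 lower of the 9 measured, with a median of 0.08. The small GTPase gene Arl4c was 1.24-fold higher (1.14 to 1.35), at 32.6 against 26.3 FPKM. The phosphodiesterase gene Smpdl3a, at 141 and 161 FPKM, had a ratio of 0.878 (0.832 to 0.927). Cd5l, secreted by tissue macrophages, was at 5.48 and 8.46 FPKM, 1.54-fold lower (1.18 to 1.99). The apolipoprotein gene Apoc1 was listed at 0 with probucol and at 3.12 FPKM untreated, on about 8 fragments, and the interval of its ratio runs from 0 to 0.589. It had a mean of at least 1 FPKM because of its level in the untreated library. Apoe was at 12.9 and 11.9 FPKM, with an interval that holds 1.

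The lipogenic genes downstream of SREBP-1 were higher in 7 of 8 cases, against 52.7% of all genes, with a median of 0.15. Of these 8 genes, 3 had an interval wholly above 1, against 29.0% of all genes with a length. The fatty acid elongase Elovl5 led at 191 and 139 FPKM, 1.38-fold higher (1.32 to 1.44), and the fatty acid synthase Fasn had a ratio of 1.06 (0.971 to 1.15). Scd1, the desaturase relative of Scd2, was at 0.606 and 0.712 FPKM, so that Scd2 stood above it in both libraries. Of the SREBP control genes 4 were higher and 3 lower, with Srebf2 at 36.7 and 42.5 FPKM (ratio 0.862, 0.809 to 0.919) and the squalene epoxidase gene Sqle 1.77-fold higher (1.29 to 2.43). The quotient of Srebf1 over Srebf2 was 0.683 and 0.613, and its change has an interval that just holds 1 (0.999 to 1.24). Among lysophospholipid acyltransferases, 5 of 7 were higher. Lpcat1 was at 46.5 and 35.8 FPKM, 1.30-fold higher (1.20 to 1.40), so the quotient of Lpcat3 over Lpcat1 was 0.826 with probucol and 1.18 untreated, 1.42-fold lower (1.26 to 1.61).

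Cholesterol ester genes were split, 4 higher and 4 lower of 8. Plin2, which coats lipid droplets, measured 44.1 FPKM in the probucol library and 23.7 FPKM in the untreated one, 1.86-fold higher (1.65 to 2.11), and its relative Plin3 was 1.26-fold higher (1.17 to 1.36). Nceh1, a hydrolase of cholesterol esters and thus opposite to Soat1, was at 5.72 and 7.27 FPKM, 1.27-fold lower (1.07 to 1.51). The triglyceride lipase gene Pnpla2 was 1.30-fold lower (1.17 to 1.45). The quotient of Nceh1 over Soat1 was 0.704 with probucol and 1.46 untreated, 2.08-fold lower (1.68 to 2.58). The quotient of Soat1 over Abcg1 was 0.149 and 0.0724, 2.06-fold higher (1.80 to 2.36). These were the largest shifts among the 11 quotients compared, after that of Nr1h3 over Nr1h2 at 4.25-fold (1.71 to 12.6). Both hold Soat1, so they are not separate observations. The next largest, Soat1 over Soat2, holds it too, at 6.76 and 3.67, 1.84-fold higher (1.00005 to 3.36). Soat2, the intestinal and hepatic relative of Soat1, was at 1.20 and 1.35 FPKM.

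**Figure D4:**
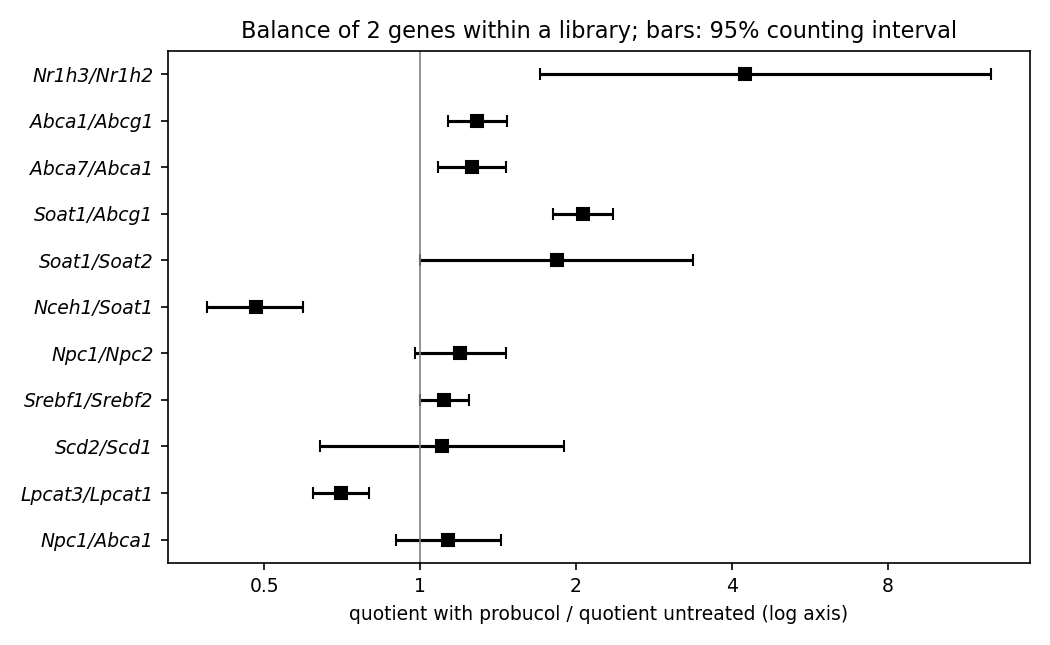
Change of the quotient of 2 genes within a library, probucol over untreated (log axis), with exact 95% counting intervals. Nr1h3 over Nr1h2 and Soat1 over Abcg1 lie highest and Nceh1 over Soat1 lowest, while the quotients of Npc1, of Scd2 over Scd1 and of Srebf1 over Srebf2 hold 1.

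Sterol transport genes of endosomes and membrane contacts were higher in 10 of 15 cases, with a median of 0.10, and 5 intervals lay above 1 and 4 below. Gramd1a, which moves plasma membrane cholesterol to the endoplasmic reticulum, was at 408 and 288 FPKM, 1.41-fold higher (1.37 to 1.46). Of the oxysterol-binding protein genes in this list, which does not hold the whole family, 3 were lower. Osbpl2 was 1.36-fold lower (1.21 to 1.53), Osbpl5 also 1.36-fold (1.18 to 1.56), and Osbp 1.32-fold (1.14 to 1.52), while Osbpl8 stood at 7.44 and 6.86 FPKM. The other ABC transporters and lipoprotein genes were even, 3 higher and 3 lower of 6, with Abca7 1.29-fold higher (1.18 to 1.41) and the lipoprotein receptor gene Scarb1 at 2.58 and 3.57 FPKM. Abca7 exceeded its relative Abca1 in both libraries, at 17.3 and 13.5 FPKM.

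Genes that make or modify oxysterols were scarce. Of the 10 listed, 3 had a mean of at least 1 FPKM, and the most abundant, Ebp at 62.2 and 62.1 FPKM and Dhcr7 at 10.8 and 12.3 FPKM, belong to late cholesterol synthesis. Ch25h, which makes the oxysterol 25-hydroxycholesterol, was listed at 0 with probucol and at 0.0873 FPKM untreated, and Sult2b1, a sulfotransferase that inactivates oxysterols, was at 0.540 and 1.40 FPKM. Hsd3b7, which acts on hydroxylated sterols, was at 0.770 and 2.41 FPKM, on about 12 and 39 fragments, 3.13-fold lower (1.66 to 6.78). Like Apoc1, it had a mean of at least 1 FPKM because of its untreated level.

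**Figure D5:**
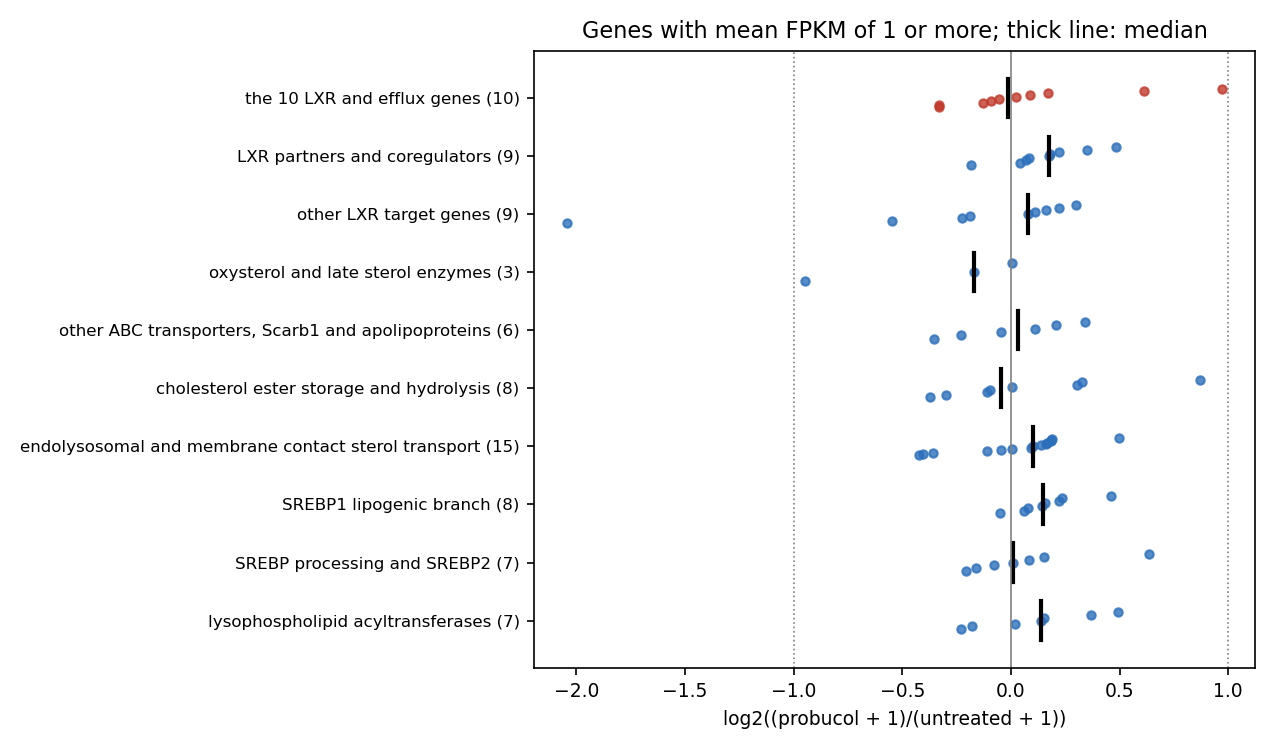
Log2 ratio of probucol over untreated on FPKM + 1 for each gene with a mean of at least 1 FPKM, by pathway list, with the number of genes in brackets and the median as a thick line. The LXR and efflux genes (red) run from -0.33 to 0.97 around a median of -0.02, and the medians of the other lists run from -0.17 to 0.17.

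Several of these genes are also expressed by other blood cells, whose markers differed between the libraries. Of 15 macrophage markers 11 had a mean of at least 1 FPKM, 7 higher with probucol and 4 lower, with a median log2 ratio of 0.30. Of their intervals 4 lay above 1 and 1 below, where the shares of all genes with a length were 29.0% and 24.2%. Adgre1, at 1.25 and 0.855 FPKM, had a mean of at least 1 FPKM because of its probucol level. The whole list summed to 216 FPKM with probucol and 214 FPKM untreated, most of it Lyz2 at 125 and 132 FPKM. The 4 with intervals above 1 were Csf1r at 3.75 and 1.85 FPKM, Vcam1 at 8.11 and 4.73 FPKM, Slc40a1 at 7.62 and 5.16 FPKM and C1qb at 20.2 and 13.9 FPKM. The heme oxygenase gene Hmox1 was lower, at 17.4 and 26.9 FPKM. Spic, the factor of splenic red pulp macrophages, was at 2.56 and 2.93 FPKM with an interval that holds 1 (0.569 to 1.40), and Marco was listed at 0 with probucol. Of 8 B cell markers 6 passed the filter and all 6 were higher, with sums of 60.6 and 22.0 FPKM, and Pax5 was listed at 0 in both libraries. Of the 6, Cd22, at 4.38 and 0.762 FPKM, and Fcrla, at 1.59 and 0.688 FPKM, passed because of their probucol levels. All 7 erythroid markers measured were lower, with sums of 219 and 865 FPKM. Most of each sum came from the globin genes Hbb-b1, Hba-a1 and Hba-a2, at 48.9, 55.3 and 106 FPKM with probucol. Untreated, these globin genes were at 312, 158 and 378 FPKM, and Hbb-b1 has no interval. Klf1, at 0.983 and 2.41 FPKM, and Slc4a1, at 0.577 and 1.79 FPKM, passed the filter because of their untreated levels. The monocyte and neutrophil markers summed to 1099 and 1011 FPKM, mostly S100a8 and S100a9, and 6 of 9 were higher. The members of this list differed in direction. The granule genes Elane and Mpo were 4.27-fold (2.62 to 7.03) and 2.59-fold higher (2.07 to 3.27), while the monocyte genes Ly6c2 and Ccr2 were 1.78-fold (1.49 to 2.16) and 1.37-fold lower (1.16 to 1.62). Of 6 natural killer markers 4 passed the filter and 3 were lower, with a median of -1.12 and sums of 7.0 and 15.6 FPKM. Klrd1 was at 1.22 and 6.22 FPKM and Gzma at 0.150 and 3.28 FPKM, both past 2-fold on the log2(FPKM + 1) scale. Gzma, on about 1 and 22 fragments, had a mean of at least 1 FPKM because of its untreated level. Ncr1, whose mean was below the filter, went the other way, at 1.04 and 0.0795 FPKM on about 13 and 1 fragments. Among 7 dendritic cell markers, Xcr1 alone passed the filter, through its untreated level, and was 1.87-fold lower (1.27 to 2.79). The whole list summed to 2.85 and 3.48 FPKM. Below the filter, Siglech was higher with probucol, at 0.687 and 0.228 FPKM, and so was Itgax, at 0.263 and 0 FPKM. Flt3, Clec9a and Batf3 were also higher, on few fragments, while Zbtb46 was lower, at 0.422 and 1.37 FPKM. The part of such cells in the values of Nr1h3, Soat1, Plin2 and the other genes was not tested. The libraries also differed in how many symbols were above 0, 14289 with probucol and 16876 untreated, and its part in values near 0, such as those of Ch25h and Apoc1, was not tested.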

How the data were processed

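Per the file headers, the authors deposited FPKM, 1 table per library. The submitters' processing notes list TopHat2 2.1.1, Bowtie2, Cuffdiff 2.2.1 and mm10, without roles; other settings are not stated. Per the labels' protocols, SMART-Seq HT cDNA went into a Nextera kit, so strand is unknown. Whether PCR copies were removed is not stated.

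Fragments per gene were estimated from steps in low FPKM of genes with 1 transcript of 800 to 10000 bp (GENCODE M21, GRCm38). The worth of a fragment was 0.101 FPKM at 1 kb with probucol and 0.100 untreated, after subtracting 210 bp. Lengths were checked on genes with several transcripts, only 1 of them RefSeq-linked, where that length differed from the median length. RefSeq-linked lengths put 75.3% and 75.8% of low values within 0.1 of a whole number. Median lengths put 20.8% and 20.9% there, where chance gives 20%, and RefSeq-linked lengths were used. Genes with several RefSeq-linked transcripts took the median of those lengths, which was not checked. Intervals are exact: Clopper-Pearson for ratios and shares, conditional for quotients, Poisson for levels. Scripts were tested on simulated data (Python 3.11.15, scipy 1.17.1).

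Members and lists were chosen with earlier results of these data known. All members are named, and of each list some of the 4 genes with the largest log2 ratio. The genes of the quotients are named as well. Fasn, Rxra, Rxrg, Smpdl3a, Apoe, Ch25h, Sult2b1, Osbpl8, Emg1 and single markers were chosen after their values were seen. The planned comparison of the LXR proteins was not run, and 1 planned list and 1 planned quotient are not reported here. Alternatives were other pseudocounts, filters, scalings and averages.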

Additional observations from a re-analysis of the deposited data

How the results depend on the processing

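All 10 member log2 ratios kept their sign with pseudocounts of 0.1 and 5, after rescaling to equal sums or upper quartiles, and after centring on the median gene. Regressing the ratios on transcript length and GC content, added after the data were seen, turned Abca1 from 0.03 to -0.09. The count of members past 2-fold was 1, Nr1h3, with pseudocount 0.1 and after that regression, at 1.92 and 1.03; with pseudocount 5 Nr1h3 was at 0.32 and Soat1 at 0.40. The median of the members became 0.0932 when the mean was taken. Over all genes, 313 were at least 2-fold higher and 357 lower when the pseudocount was 0.1. These numbers became 55 and 64 for a pseudocount of 5, and 83 and 96 among genes whose mean reached 5 FPKM. With at most 2 mismatches, 0 of the 10 promoters of the 7 genes held the repeat, against 3.47% of all genes. With fragments counted from the median length of all transcripts, also added later, the interval of Soat1 widened to 1.004 to 2.68, and those of Abcg1, Mylip and Nr1h3 still lay apart from 1. The number of estimated fragments limits Nr1h3 most. No paired analysis was possible because each group has 1 library.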
